A study of Homo sapiens with 9 samples.

Results

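Huh7 cells, a human line established from a hepatocellular carcinoma, were treated with penta-O-galloyl-beta-D-glucopyranoside (PGG), a polyphenol in which glucose carries galloyl groups at positions 1,2,3,4,6, and their RNA was measured on Affymetrix expression arrays. The groups were PGG 48 h (PGG at 0.1 mg/mL in PBS for 48 hours), PGG 6 h (the same dose for 6 hours) and PBS 48 h (the solvent alone for 48 hours), with 3 arrays each that the labels call biological replicates. All groups were cells of 1 line in DMEM. The titles of the solvent arrays give 48 hours, while their descriptions give 0 hours of PGG. No solvent array of 6 hours was analysed, so PGG 6 h against PBS 48 h differs in time in culture too. The genes described are NRF2, its inhibitor KEAP1 and genes that NRF2 is known to control or that make and use glutathione and NADPH in detoxification. They were taken from a list of 34 names. Every probe set annotated with exactly 1 gene symbol from the list was read, which gave 66 probe sets of 33 genes, out of 54613 probe sets and 19775 genes tested. AKR1B1, which encodes aldose reductase, had no probe set annotated to it alone and was not analysed here.

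NRF2, encoded by NFE2L2, is a transcription factor that KEAP1 holds for ubiquitination by a CUL3 ligase. When electrophiles or oxidants modify KEAP1, NRF2 accumulates, pairs with small MAF proteins and binds antioxidant response elements in its target genes. In hepatocytes these genes supply glutathione, thioredoxin and NADPH, reduce quinones and carbonyls, conjugate reactive compounds and export the conjugates, and many hepatocellular carcinomas carry high levels of them.

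The arrays of the 3 groups had medians of 5.16 to 5.20 on the log2 scale, the scale of all signals given here, and the arrays of a group correlated at 0.993 to 0.998 across probe sets. For ACTB, a control gene read at both ends of its transcript to judge RNA integrity, the 3′ signal minus the 5′ signal was 2.14 to 4.03 on the PGG 48 h arrays, 1.13 to 1.23 on the PGG 6 h arrays and 0.96 to 1.57 on the PBS 48 h arrays, so the PGG 48 h arrays stood apart, with replicate 2 the highest. All 11 hepatocyte and hepatoma markers measured, among them ALB and AFP, lay above the array median in every group. Of the markers of other cells, 2 of 7 for fibroblasts did so (COL1A1 and PDGFRB). So did 2 of 5 for endothelium (PECAM1 and TEK) and 1 of 5 for leukocytes (CD3E). The others, among them PTPRC, CDH5 and COL1A2, did not. Single markers of several cell types, hepatocytes included, differed between the groups. The fibroblast marker LUM averaged 6.19 in PGG 48 h, 3.00 in PGG 6 h and 2.93 in PBS 48 h. In the same order of groups, the fibroblast marker COL1A1 averaged 7.24, 7.33 and 7.52, and the monocyte marker CD14 4.78, 5.35 and 6.16. Among the hepatocyte markers, APOB averaged 10.01, 11.95 and 12.00 and TTR 8.06, 8.60 and 7.06. The log2 of the summed signal of the hepatocyte markers was 15.73 to 15.74 in PGG 48 h, 16.01 to 16.03 in PGG 6 h and 15.80 to 15.82 in PBS 48 h. That of the fibroblast markers was 8.53 to 8.62, 8.29 to 8.39 and 8.36 to 8.41, that of the endothelial markers 7.39 to 7.65, 7.25 to 7.33 and 7.21 to 7.27, and that of the leukocyte markers 6.80 to 6.86, 7.01 to 7.10 and 7.32 to 7.47, in the same order of groups. Their part in the results was not tested. In RNA from whole cultures, fewer cells of a kind and less RNA per cell cannot be told apart.

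At 48 hours the genes were lower on balance. Between PGG 48 h and PBS 48 h, 23 of the 33 genes fell and 2 rose at an adjusted p under 0.05 (limma, Benjamini-Hochberg over all genes), while 23.7% of all genes fell and 23.3% rose. The median log2 difference was -0.56 over the 33 genes and -0.02 over all genes. Of the genes that fell, 9 fell by more than 1 on the log2 scale, against 5.86% of all genes, and GSTA1, which encodes a glutathione S-transferase of hepatocytes, fell furthest by the probe set that stands for each gene, 6.93-fold. By single probe sets 1 of AKR1C1, which encodes a ketone reductase, fell further, 7.64-fold. Counted by probe set, 41 of 66 fell and 3 rose, against 20.2% and 18.8% of all probe sets.

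At 6 hours no such shift was seen. Between PGG 6 h and PBS 48 h, 9 of the 33 genes rose and 5 fell, against 16.3% and 16.1% of all genes, and the median log2 difference was -0.05, against 0.01 over all genes. The 9 rises became 5 with the mean of all probe sets of a gene. The 5 falls became 9 with a variance trend, and 3 without replicate 2 of PGG 6 h or without replicate 2 or 3 of PBS 48 h. No gene moved by 1 or more in the probe set that stands for it. By probe set, 10 of 66 rose and 9 fell, against 12.2% and 12.5% of all probe sets. By the probe set that stands for each gene, the largest rises were those of PRDX1, GPX2 and GPX1, which encode enzymes that remove peroxides. By single probe sets 1 of TKT, which encodes transketolase, rose further, by 0.95.

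The test of PGG 48 h against PGG 6 h sets both times against each other, with the solvent arrays used only to estimate the spread. The groups differ in time in culture as well as in time with PGG. In it 25 of the 33 genes fell and 4 rose, against 22.6% and 23.0% of all genes, and the median log2 difference was -0.71, against -0.01 over all genes. By probe set, 42 of 66 fell and 6 rose, against 18.4% and 18.0% of all probe sets. The rises were those of NFE2L2, KEAP1, GCLC and ABCC1. The values that the 33 genes had on each array are drawn as differences from the mean of the solvent arrays.

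**Figure D1:**
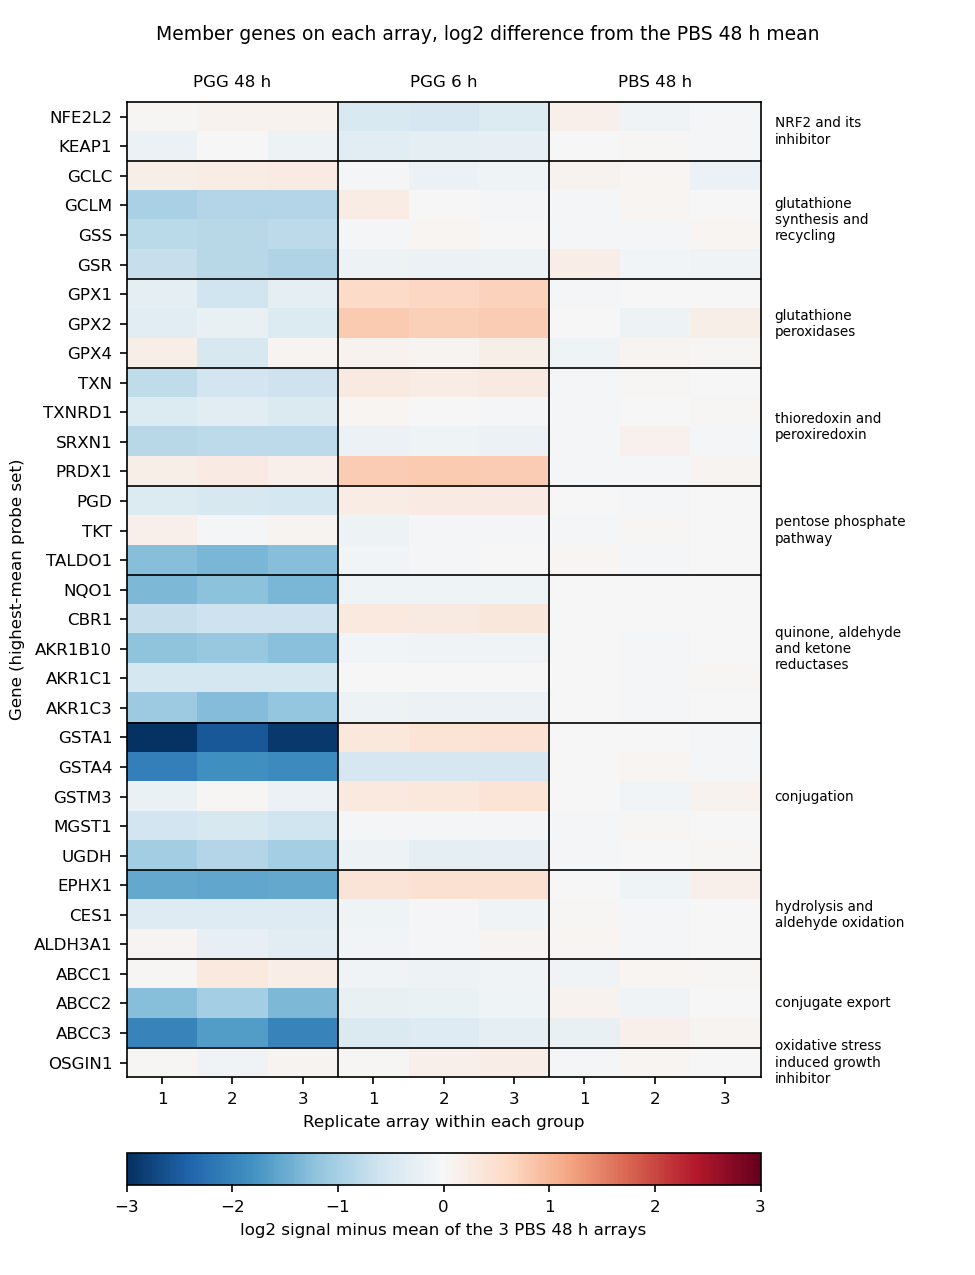
Log2 signal of each of the 33 genes (rows, grouped by role) on each of the 9 arrays (columns, 3 replicates each of PGG 48 h, PGG 6 h and PBS 48 h) minus the mean of the 3 PBS 48 h arrays, in colour from -3 (blue) to 3 (red). Blue fills most rows of the PGG 48 h arrays, with GSTA1 the darkest, while on the PGG 6 h arrays PRDX1, GPX2 and GPX1 are the reddest rows.

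The genes lie among brightly measured ones, and bright probe sets were called more often in general. Among genes whose probe set had a mean log2 signal of at least 9, 21 of 26 members fell and 2 rose at 48 hours against PBS, while 40% of 3135 such genes fell and 38.2% rose. At a mean signal of at least 11, 13 of 17 members fell, against 42.7% of 626 genes. Both signal limits were chosen after the data had been seen. The ACTB differences given above moved with the same comparison, and their part in these counts was not tested. Without replicate 2 of PGG 48 h, whose ACTB difference was the highest, the counts were 23 lower and 0 higher.

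Promoter sequence was looked up because NRF2 is known to act through short elements near its target genes. RefSeq windows from 250 bases before to 50 bases after a gene start (GRCh38.p14) matched 25 of the 33 genes, with 35 windows. The antioxidant response element core TGACNNNGC, read on both strands, was found in windows of 9 of these 25 genes (CBR1, EPHX1, GCLM, GPX2, GSTA4, KEAP1, MGST1, PGD and TXNRD1), which is 36% of them, against 16.1% of all genes with a window and 13.3% of all 35116 windows. The AP-1 site TGANTCA, which can overlap that core, was found in 1 of 25 genes, OSGIN1, against 9.37% of all genes and 7.71% of all windows. The xenobiotic response element core GCGTG was found in 16 of 25 genes, which is 64%, against 40.6% of all genes and 36.5% of all windows. These matches describe letters and do not show binding, and sequence outside the windows was not searched. The 250 bases before the start are printed for 4 genes, with the match to the antioxidant response element core in capitals. GCLM and GSTA4 fell at 48 hours and did not rise at 6 hours. EPHX1 and GPX2 rose at 6 hours and were lower than in PBS at 48 hours. Only genes with a match were printed, so that each shows one was fixed in advance.
GCLM (chr1:93909431-93909680, minus strand): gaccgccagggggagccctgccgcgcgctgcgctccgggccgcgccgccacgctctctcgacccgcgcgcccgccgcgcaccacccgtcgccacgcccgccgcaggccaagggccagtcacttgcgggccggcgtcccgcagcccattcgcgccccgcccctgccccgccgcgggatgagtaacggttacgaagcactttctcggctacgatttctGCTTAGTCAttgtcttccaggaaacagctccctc
GSTA4 (chr6:52995285-52995534, minus strand): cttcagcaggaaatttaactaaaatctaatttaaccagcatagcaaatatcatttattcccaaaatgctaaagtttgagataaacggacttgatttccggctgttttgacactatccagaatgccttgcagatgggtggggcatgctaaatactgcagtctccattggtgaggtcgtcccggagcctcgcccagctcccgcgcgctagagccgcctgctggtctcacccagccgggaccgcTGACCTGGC
EPHX1 (chr1:225825104-225825353, plus strand): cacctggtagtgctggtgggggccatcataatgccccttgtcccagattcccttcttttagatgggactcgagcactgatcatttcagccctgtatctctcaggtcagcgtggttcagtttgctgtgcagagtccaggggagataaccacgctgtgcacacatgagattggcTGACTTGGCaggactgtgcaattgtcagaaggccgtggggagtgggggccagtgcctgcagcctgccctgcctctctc
GPX2 (chr14:64942746-64942995, minus strand): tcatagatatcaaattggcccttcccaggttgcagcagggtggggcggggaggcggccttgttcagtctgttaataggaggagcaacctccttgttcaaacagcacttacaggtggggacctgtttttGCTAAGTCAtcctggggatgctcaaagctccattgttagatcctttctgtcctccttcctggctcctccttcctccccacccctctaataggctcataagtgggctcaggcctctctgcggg
The match begins 34 bases before the start in GCLM and 122 bases before it in GPX2, both on the opposite strand, so that GCTTAGTCA and GCTAAGTCA read as the core on the other strand. It begins 78 bases before the start in EPHX1 (TGACTTGGC), in 1 of the 3 windows of this gene, and 9 bases before it in GSTA4 (TGACCTGGC).

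NFE2L2 and KEAP1, the factor and its inhibitor, were lower at 6 hours and not at 48 hours. NFE2L2 had log2 signals of 11.26, 11.34 and 11.32 on the PGG 48 h arrays, 10.77, 10.73 and 10.81 on the PGG 6 h arrays and 11.37, 11.11 and 11.19 on the PBS 48 h arrays. The PGG 6 h arrays lay below all others, and PGG 48 h and PBS 48 h overlapped. At 6 hours NFE2L2 fell by 0.45 ± 0.08 (log2, SE; adjusted p = 0.00073 from limma), and at 48 hours its log2 difference from PBS was 0.08, with a 95% interval of -0.08 to 0.25 (adjusted p = 0.42). KEAP1 had 8.73, 8.92 and 8.76 in PGG 48 h, 8.59, 8.60 and 8.66 in PGG 6 h and 8.91, 8.93 and 8.87 in PBS 48 h. It fell by 0.29 at 6 hours (adjusted p = 0.0071) and differed by -0.10 at 48 hours (95% interval -0.25 to 0.05, adjusted p = 0.27). Between the times, NFE2L2 was higher in PGG 48 h than in PGG 6 h by 0.54 (adjusted p = 0.00011) and KEAP1 by 0.19 (adjusted p = 0.044). The KEAP1 call between the times was lost when any 1 of PGG 48 h replicates 2 and 3 or the 3 PGG 6 h arrays was left out. Of the dimmer probe sets of NFE2L2, the one with a mean signal of 4.68 fell at both times, by 0.28 at 48 hours and 0.22 at 6 hours, and the one with a mean of 5.71 was called at neither.

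Of the genes of glutathione synthesis and recycling, GCLM, GSS and GSR fell at 48 hours and GCLC did not. Glutamate-cysteine ligase, the rate-limiting enzyme of glutathione synthesis, is made of the catalytic subunit GCLC and the modifier subunit GCLM. GCLM had 10.26, 10.35 and 10.34 in PGG 48 h, 11.45, 11.21 and 11.20 in PGG 6 h and 11.16, 11.28 and 11.24 in PBS 48 h. All PGG 48 h arrays lay below the other groups, which overlapped. GCLM fell by 0.91 ± 0.08 at 48 hours (log2, SE; adjusted p = 2.2e-06 from limma) and differed from PBS by 0.06 at 6 hours (95% interval -0.12 to 0.24, adjusted p = 0.65), and its other 2 probe sets fell by 1.19 and 1.14 at 48 hours. GCLC had 9.82, 9.86 and 9.88 in PGG 48 h, 9.59, 9.47 and 9.51 in PGG 6 h and 9.75, 9.69 and 9.47 in PBS 48 h. The PGG 48 h values lay just above those of the other groups. GCLC rose by 0.22 at 48 hours (adjusted p = 0.045), a call lost when any 1 of the 3 PGG 48 h arrays or of PBS 48 h replicates 2 and 3 was left out and not made by its other probe sets, and at 6 hours it differed by -0.11 (adjusted p = 0.34). GSS, glutathione synthetase, fell by 0.82 and GSR, the reductase that regenerates glutathione, by 0.81 at 48 hours (adjusted p = 6.9e-07 and 1.8e-05), and neither passed the test at 6 hours. Both probe sets of each of these genes fell at 48 hours.

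Among the glutathione peroxidases, GPX1 and GPX2 were higher at 6 hours and lower at 48 hours than in PBS. The array values of GPX1, GPX2 and PRDX1 are given because of their rises at 6 hours, a choice made after the values had been seen. GPX2, known from gut epithelium and the liver, had 11.17, 11.29 and 11.11 in PGG 48 h, 12.30, 12.23 and 12.28 in PGG 6 h and 11.50, 11.36 and 11.70 in PBS 48 h. GPX1, the cytosolic enzyme, had 10.55, 10.22 and 10.54 in PGG 48 h, 11.39, 11.43 and 11.52 in PGG 6 h and 10.78, 10.84 and 10.84 in PBS 48 h. For both genes the PGG 6 h arrays lay above and the PGG 48 h arrays below the PBS 48 h arrays, without overlap. GPX2 fell by 0.33 at 48 hours (adjusted p = 0.0096 from limma) and rose by 0.75 at 6 hours (adjusted p = 6.9e-05). GPX1 fell by 0.38 at 48 hours (adjusted p = 0.0043) and rose by 0.63 at 6 hours (adjusted p = 0.00027). The falls of both at 48 hours were not called by the methods' t-test after adjustment. A dimmer probe set of GPX2 (mean signal 5.88) fell by 1.27 at 48 hours and was not called at 6 hours. GPX4, which reduces lipid peroxides, differed from PBS by -0.07 at 48 hours (adjusted p = 0.73) and by 0.12 at 6 hours (adjusted p = 0.59). Its replicate 2 of PGG 48 h, at 10.78, lay apart from 11.42 and 11.34 of the other replicates.

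In the thioredoxin system TXN, TXNRD1 and SRXN1 fell at 48 hours, and TXN and PRDX1 rose at 6 hours. PRDX1, a peroxiredoxin that thioredoxin keeps reduced, had 12.43, 12.50 and 12.39 in PGG 48 h, 13.01, 13.03 and 13.01 in PGG 6 h and 12.21, 12.20 and 12.33 in PBS 48 h. Both PGG groups lay above PBS 48 h, the PGG 6 h arrays furthest. PRDX1 rose by 0.77 ± 0.06 at 6 hours (log2, SE; adjusted p = 5.1e-06 from limma) and by 0.19 at 48 hours (adjusted p = 0.028), and the call at 48 hours was lost when any 1 of replicates 1 and 2 of PGG 48 h or of PBS 48 h was left out. TXNRD1, thioredoxin reductase, had 12.27, 12.37 and 12.26 in PGG 48 h, 12.76, 12.70 and 12.64 in PGG 6 h and 12.66, 12.69 and 12.72 in PBS 48 h. SRXN1, the sulfiredoxin that repairs oxidised peroxiredoxins, had 10.77, 10.83 and 10.83 in PGG 48 h, 11.43, 11.48 and 11.44 in PGG 6 h and 11.55, 11.74 and 11.55 in PBS 48 h. In both genes the PGG 48 h arrays lay below all others. At 48 hours TXNRD1 fell by 0.39 (adjusted p = 0.00033) and SRXN1 by 0.80 (adjusted p = 1.9e-06), and at 6 hours they differed by 0.01 and -0.16 (adjusted p = 0.94 and 0.10). TXN, thioredoxin itself, fell by 0.65 at 48 hours (adjusted p = 8.4e-06) and rose by 0.25 at 6 hours (adjusted p = 0.013), whereas its other probe set was called at neither time, at -0.47 after 48 hours and -0.31 after 6 hours.

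**Figure D2:**
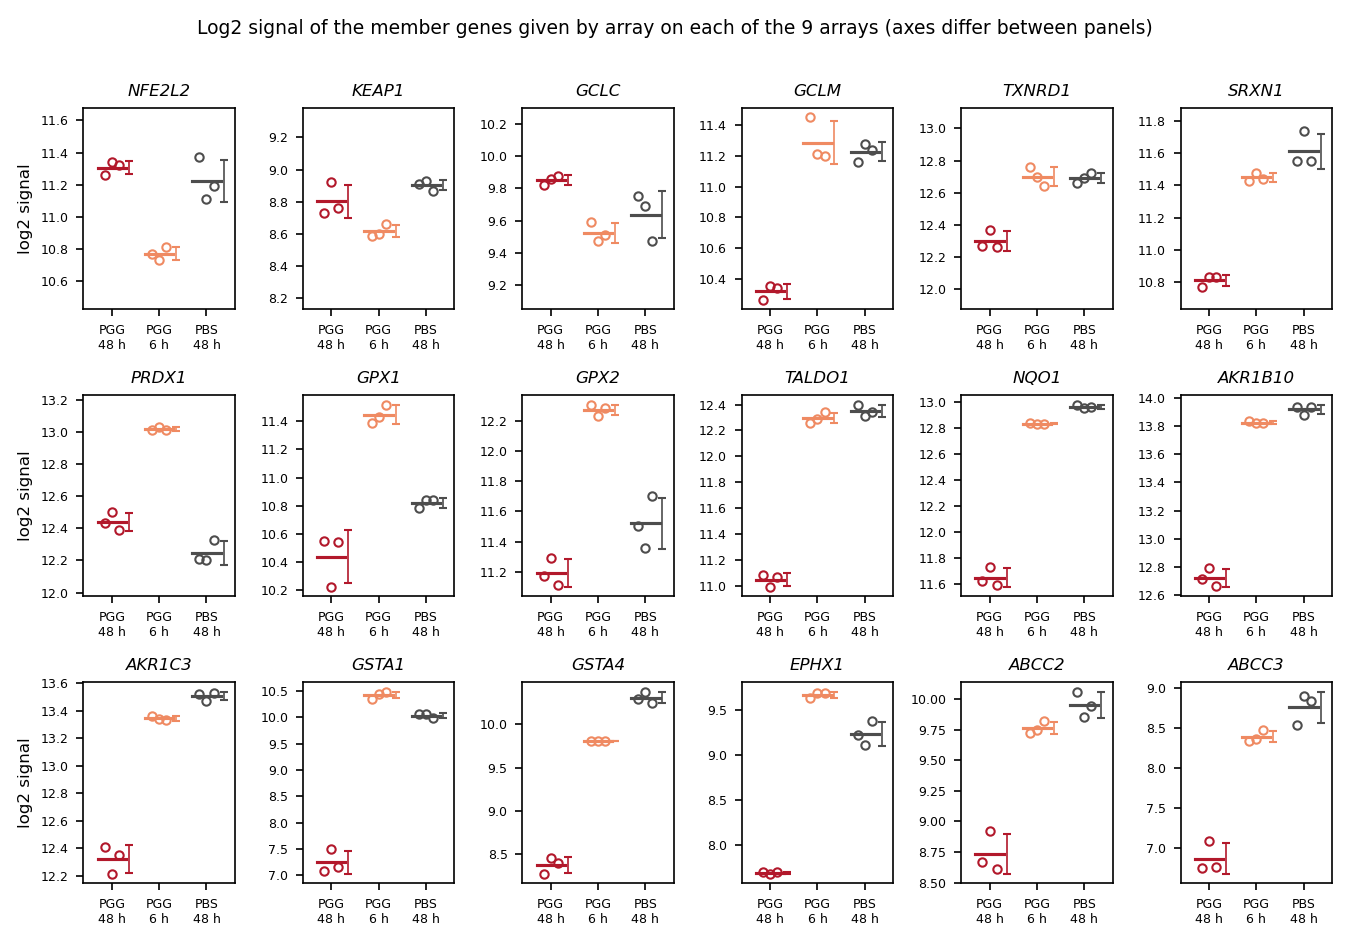
Log2 signal (vertical axes, which differ between panels) of 18 genes on the 9 arrays, with PGG 48 h in red, PGG 6 h in orange and PBS 48 h in grey. Circles are arrays, horizontal lines are means and bars are SDs of 3 arrays, and in the panels of GSTA1, GSTA4, EPHX1, ABCC2 and ABCC3 the PGG 48 h arrays lie below both other groups.

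The pentose phosphate pathway regenerates NADPH, which glutathione and thioredoxin reductases and many carbonyl reductases use. TALDO1, transaldolase of its non-oxidative branch, had 11.08, 10.99 and 11.07 in PGG 48 h, 12.26, 12.29 and 12.34 in PGG 6 h and 12.40, 12.31 and 12.34 in PBS 48 h. The PGG 48 h arrays were well below the others, which overlapped. TALDO1 fell by 1.30 ± 0.06 at 48 hours (log2, SE; adjusted p = 1.8e-08 from limma), a 2.47-fold fall, and differed by -0.05 at 6 hours (adjusted p = 0.59). PGD, the phosphogluconate dehydrogenase that yields NADPH, fell by 0.47 at 48 hours (adjusted p = 3.8e-05) and rose by 0.24 at 6 hours (adjusted p = 0.0091). Its other 2 probe sets, at mean signals of 4.68 and 3.90, were called in no comparison. TKT, transketolase, did not pass the test against PBS at either time, with differences of 0.06 at 48 hours and -0.08 at 6 hours. The dimmest of its 3 probe sets, however, rose by 0.95 at 6 hours (adjusted p over probe sets = 4.4e-05) and differed by -0.07 at 48 hours.

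All 5 measured reductases of quinones, aldehydes and ketones fell at 48 hours, against 23.7% of all genes. Among all genes with a mean log2 signal of at least 9, 40% fell. NQO1, which reduces quinones in a step that avoids radicals, had 11.62, 11.73 and 11.59 in PGG 48 h, 12.84, 12.83 and 12.83 in PGG 6 h and 12.98, 12.95 and 12.96 in PBS 48 h. It fell by 1.32 ± 0.06 at 48 hours (log2, SE; adjusted p = 1.7e-08 from limma), a 2.49-fold fall, and all 3 of its probe sets fell, by 1.32 to 1.56. At 6 hours its difference of -0.13 did not pass the test (adjusted p = 0.14), although its 3 PGG 6 h arrays lay below the 3 PBS 48 h arrays. AKR1B10, a retinal and aldehyde reductase known for its high level in hepatocellular carcinoma, had 12.71, 12.79 and 12.66 in PGG 48 h, 13.84, 13.82 and 13.82 in PGG 6 h and 13.94, 13.88 and 13.94 in PBS 48 h. AKR1C3, a reductase of steroid and prostaglandin ketones, had 12.41, 12.21 and 12.35 in PGG 48 h, 13.36, 13.34 and 13.33 in PGG 6 h and 13.52, 13.47 and 13.53 in PBS 48 h. Both showed the pattern of NQO1, with PGG 48 h far below the other groups. They fell by 1.20 and 1.18 at 48 hours (adjusted p = 3.1e-08 and 7e-08), and at 6 hours they differed by -0.09 and -0.16 (adjusted p = 0.30 and 0.092). The PGG 6 h and PBS 48 h signals of AKR1B10 lay near the highest value of any probe set on an array, which was 14.00 to 14.07. CBR1, which reduces carbonyls such as those of prostaglandins and anthracyclines, fell by 0.64 at 48 hours (adjusted p = 3e-06) and rose by 0.31 at 6 hours (adjusted p = 0.0016).

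For AKR1C1, a close relative of AKR1C2 and AKR1C3, the probe sets gave falls of very different size. The probe set with the highest mean had 13.47, 13.49 and 13.47 in PGG 48 h, 14.00 on each PGG 6 h array and 14.00, 13.98 and 14.04 in PBS 48 h. Its PGG 6 h and PBS 48 h signals lay at the top of the scale. It fell by 0.53 at 48 hours (adjusted p = 1.1e-05 from limma) and differed by -0.01 at 6 hours. The probe set with a mean signal of 10.3 fell by 2.93 at 48 hours and by 1.11 at 6 hours (adjusted p over probe sets = 2.4e-09 and 9.2e-06). The second brightest probe set fell by 0.74 at 48 hours, and the other 2, at mean signals of 5.13 and 3.61, were called in no comparison. The 2 brightest carry the suffix that Affymetrix gives to probe sets whose probes may also match other transcripts, and AKR1C1 is near-identical to AKR1C2. How the RNA of such near-identical genes divides between their probe sets cannot be told from these values.

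Among the probe sets that stand for the 33 genes, the largest fall at 48 hours was that of a conjugating enzyme. GSTA1, an alpha-class glutathione S-transferase abundant in liver, had 7.08, 7.50 and 7.15 in PGG 48 h, 10.36, 10.45 and 10.48 in PGG 6 h and 10.06, 10.06 and 9.99 in PBS 48 h. The groups did not overlap, with PGG 6 h above and PGG 48 h far below the solvent arrays. GSTA1 fell by 2.79 ± 0.10 at 48 hours (log2, SE; adjusted p = 3.1e-09 from limma), and at 6 hours it rose by 0.39 (adjusted p = 0.011). It was 9.11-fold lower in PGG 48 h than in PGG 6 h. GSTA1 and GSTA2 are near-identical, so which of them the signal comes from is uncertain. The other GSTA1 probe set, at a mean signal of 6.06, moved the opposite way, with a rise of 1.27 at 48 hours (adjusted p over probe sets = 3.8e-06). GSTA4, which conjugates the lipid aldehyde hydroxynonenal, had 8.27, 8.46 and 8.40 in PGG 48 h, 9.81 on each PGG 6 h array and 10.30, 10.38 and 10.25 in PBS 48 h. It fell at both times, by 1.93 at 48 hours (3.82-fold, adjusted p = 2.8e-09) and by 0.50 at 6 hours (adjusted p = 0.0002), and its second probe set fell too, by 1.24 and 0.48.

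The other 3 conjugation genes moved less. UGDH, which makes the glucuronic acid donor, fell by 0.98 at 48 hours (adjusted p = 4.2e-07 from limma) and by 0.23 at 6 hours (adjusted p = 0.028). The call at 6 hours was lost when any 1 of replicates 2 and 3 of PGG 6 h or of PBS 48 h was left out. MGST1, a membrane-bound transferase, fell by 0.56 at 48 hours (adjusted p = 1.4e-05) and did not pass the test at 6 hours, and 4 of its 5 probe sets fell at 48 hours. GSTM3, of the mu class, rose by 0.33 at 6 hours (adjusted p = 0.0091) and differed by -0.11 at 48 hours (adjusted p = 0.31). A dimmer GSTM3 probe set rose by 0.49 at 48 hours and was not called at 6 hours.

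EPHX1, the microsomal epoxide hydrolase, gave the same order of groups as GSTA1. It had 7.70, 7.68 and 7.70 in PGG 48 h, 9.63, 9.69 and 9.69 in PGG 6 h and 9.22, 9.11 and 9.38 in PBS 48 h. The groups did not overlap. EPHX1 fell by 1.54 ± 0.07 at 48 hours (log2, SE; 2.91-fold, adjusted p = 2.1e-08 from limma) and rose by 0.43 at 6 hours (adjusted p = 0.0009). CES1, a liver carboxylesterase, fell by 0.39 at 48 hours (adjusted p = 0.00017) and did not pass the test at 6 hours. ALDH3A1, an aldehyde dehydrogenase, had mean signals of 4.36, 4.51 and 4.52 in PGG 48 h, PGG 6 h and PBS 48 h, below the array medians, and was called in no comparison. OSGIN1, an oxidative stress induced growth inhibitor known as an NRF2 target, differed by 0.0033 at 48 hours (95% interval -0.16 to 0.17) and 0.13 at 6 hours.

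Of the exporters of conjugates, ABCC2 and ABCC3 fell at 48 hours. ABCC2, which carries glutathione and glucuronide conjugates into bile, had 8.67, 8.92 and 8.61 in PGG 48 h, 9.72, 9.75 and 9.82 in PGG 6 h and 10.06, 9.85 and 9.94 in PBS 48 h. ABCC3, which exports conjugates toward the blood, had 6.75, 7.09 and 6.76 in PGG 48 h, 8.34, 8.37 and 8.48 in PGG 6 h and 8.54, 8.91 and 8.84 in PBS 48 h. In both, the PGG 6 h arrays lay between those of PGG 48 h and PBS 48 h, without overlap. ABCC2 fell by 1.22 ± 0.09 at 48 hours (log2, SE; adjusted p = 5.9e-07 from limma) and differed by -0.19 at 6 hours (adjusted p = 0.15). ABCC3 fell by 1.90 ± 0.12 at 48 hours (adjusted p = 1.2e-07), with all 5 probe sets falling, by 0.29 to 1.90. Its fall of 0.37 at 6 hours (adjusted p = 0.032) was lost when any 1 of PGG 6 h replicates 1 and 2 or PBS 48 h replicates 2 and 3 was left out. ABCC1 was called at neither time against PBS (0.18 at 48 hours, adjusted p = 0.089, and -0.12 at 6 hours, adjusted p = 0.31), and was higher in PGG 48 h than in PGG 6 h by 0.30 (adjusted p = 0.0087).

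**Figure D3:**
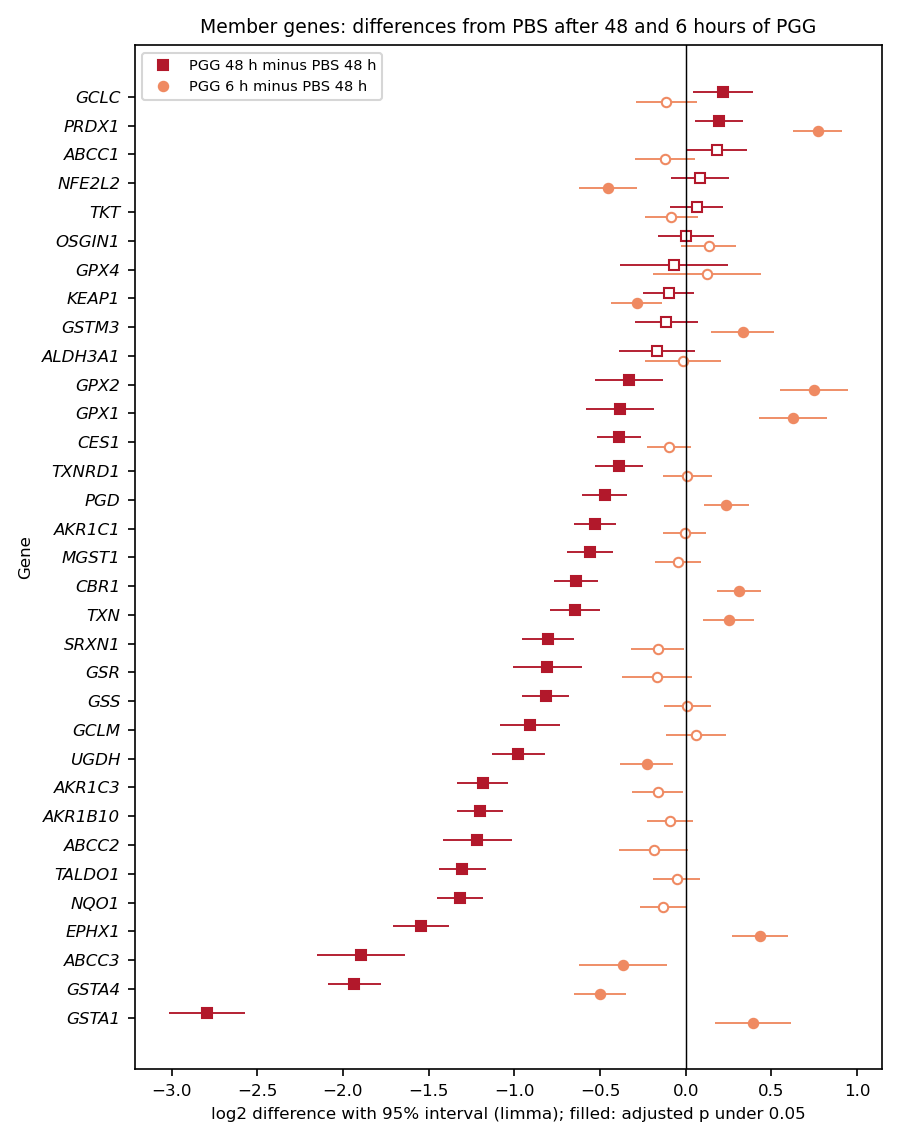
Log2 difference from PBS 48 h (horizontal axis) of the 33 genes, ordered by the difference at 48 hours, for PGG 48 h (red squares) and PGG 6 h (orange circles), with 95% intervals from limma. Filled symbols passed an adjusted p under 0.05, and GSTA1, at -2.79 for PGG 48 h and 0.39 for PGG 6 h, is the lowest row.

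Across the 2 comparisons with PBS, which share the solvent arrays, the 33 genes fell into a few combinations of calls. The share of all genes with each combination was not counted, so whether a combination is unusual cannot be told. Singly, 16.3% of all genes rose and 16.1% fell at 6 hours, and 23.3% rose and 23.7% fell at 48 hours. There were 7 genes that rose at 6 hours and fell at 48 hours: GPX1, GPX2, TXN, PGD, CBR1, GSTA1 and EPHX1. Genes chosen this way must be lower in PGG 48 h than in PGG 6 h, here by 0.71 (PGD) to 3.19 (GSTA1). That difference is therefore no separate support for the pattern. PRDX1 rose at both times, while GSTA4, UGDH and ABCC3 fell at both. Another 13 genes fell at 48 hours and were not called at 6 hours: GCLM, GSS, GSR, TXNRD1, SRXN1, TALDO1, NQO1, AKR1B10, AKR1C1, AKR1C3, MGST1, CES1 and ABCC2. GPX4, TKT, ALDH3A1, ABCC1 and OSGIN1 were called against PBS at neither time. Under the study's threshold for probe sets (a change of more than 1.5 on the log2 scale at an adjusted p under 0.005), 8 of the 66 probe sets fell at 48 hours, 0 fell at 6 hours and 5 fell between the times, and none rose, by limma and by the methods' t-test alike. The shares of all probe sets that fell past this threshold were 1.86%, 0.436% and 1.28% by limma, and 1.5%, 0.335% and 1.13% by the methods' t-test, in the same order of comparisons. Without the size threshold, by limma at an adjusted p under 0.05, 9 of the 66 probe sets fell and 10 rose at 6 hours, and by the methods' t-test 18 of the 33 genes had an unadjusted p under 0.05 at that time, against 39.2% of all genes.

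**Figure D4:**
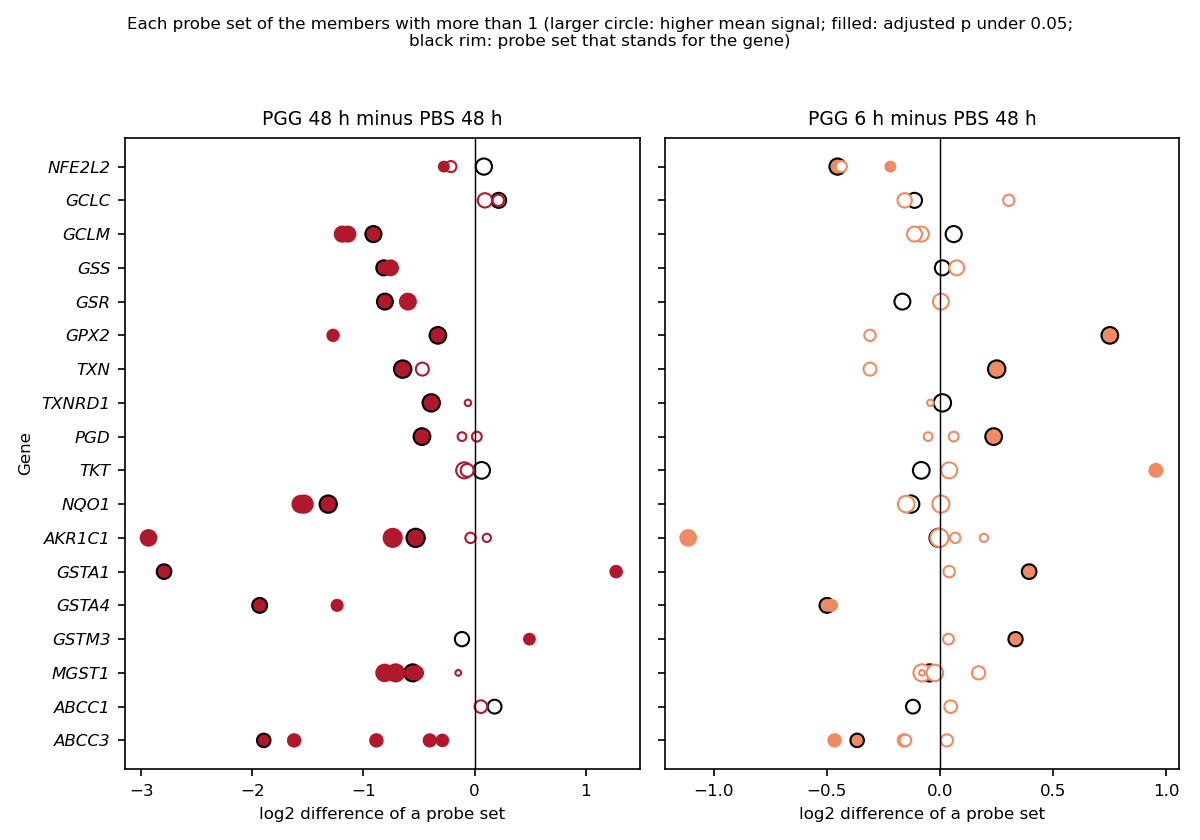
Log2 difference from PBS 48 h (horizontal axes) of each probe set of the 18 genes with more than 1, for PGG 48 h (left) and PGG 6 h (right), with larger circles for higher mean signal, filled circles for an adjusted p under 0.05 and a black rim for the probe set that stands for the gene. The GSTA1 probe set that rose by 1.27 at 48 hours, the AKR1C1 probe set that fell by 2.93 and the TKT probe set that rose by 0.95 at 6 hours lie apart from the other probe sets of their genes.

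Other genes of the pathway were read from 9 lists, of which 145 of 163 genes were measured. At 48 hours 72 of these fell and 31 rose, against 23.7% and 23.3% of all genes. At 6 hours 47 fell and 35 rose, against 16.1% and 16.3% of all genes. The counts of each list below are to be read against the same shares. Of 16 further known NRF2 target genes, 12 fell and 2 rose at 48 hours. The falls were led by ABCC4 (2.06), the ferrochelatase gene FECH (1.84) and SLC7A11 (1.55), the cystine transporter that feeds glutathione synthesis, all at adjusted p values of 8.5e-08 or below from limma. HMOX1, heme oxygenase, rose by 1.26 at 48 hours (adjusted p = 5.7e-07) and by 0.46 at 6 hours (adjusted p = 0.0027). At 6 hours 9 of the 16 fell, led by TXNIP, which binds thioredoxin (2.68), and SLC7A11 (1.35), and 2 rose. The list was not split by whether NRF2 raises or lowers a gene, so these counts do not measure NRF2 activity.

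Among 16 partners, competitors and turnover factors of NRF2, 6 rose and 4 fell at 48 hours, against 23.3% and 23.7% of all genes. At 6 hours 3 rose and 6 fell, against 16.3% and 16.1% of all genes. MAFF, a small MAF partner, rose by 1.68 at 48 hours (adjusted p = 3.4e-09 from limma), and BACH1, which competes with NRF2 for its sites, rose by 1.02 (adjusted p = 2.9e-07). CUL3, the scaffold of the KEAP1 ligase, fell by 0.93, and SQSTM1, which binds KEAP1, fell by 0.70. At 6 hours MAFG fell by 0.81 and the ligase subunit RBX1 rose by 0.95.

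Of 15 other glutathione S-transferases and related enzymes, 10 rose and 2 fell at 6 hours, the rises led by MGST3 (1.49), GSTM4 (1.41) and GSTM2 (0.87). At 48 hours 3 rose and 6 fell. GSTP1 fell by 1.19 and GSTO2 by 2.32, while PTGES, which makes prostaglandin E, rose by 3.04 (adjusted p = 1.2e-09 from limma). Mu-class genes are similar in sequence, so their separate values are uncertain. Of 19 other glutathione genes, 11 fell and 3 rose at 48 hours and 8 fell and 2 rose at 6 hours. CBS and CTH make cysteine from homocysteine. CBS fell by 1.92 at 48 hours and 1.76 at 6 hours, and CTH fell by 2.43 at 6 hours. GPX8, a peroxidase of the endoplasmic reticulum, rose by 2.65 and 1.06.

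Among the remaining lists, 9 of 15 other thioredoxin, peroxiredoxin and superoxide genes fell and 3 rose at 48 hours, with falls of MSRB2 (1.90) and PRDX6 (0.78), and a rise of catalase, CAT, by 0.54 (adjusted p = 0.00012 from limma). At 6 hours 4 rose and 2 fell, with CAT at 1.01 and SOD1 at 0.63 leading the rises. Of 10 other NADPH sources, 7 fell and 1 rose at each time, IDH2 being the rise (0.90 at 48 hours and 0.40 at 6 hours). Other reductases and dehydrogenases gave 9 falls and 1 rise of 18 at 48 hours, led by ADH6 (2.64) and AKR1C4 (1.71), and 3 falls and 7 rises at 6 hours. For cytochromes P450 and nuclear receptors the 48-hour counts were 4 falls and 5 rises of 18, near the shares of all genes, 23.7% and 23.3%. CYP3A5 (1.36) and TIPARP (1.22) rose and AHR fell by 0.75 at 48 hours, and at 6 hours AHR fell by 1.56. Of 18 other conjugating enzymes and transporters, 10 fell and 7 rose at 48 hours and 7 fell and 4 rose at 6 hours, and the uptake transporter gene SLCO1B3 fell by 3.90 and 2.57.

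**Figure D5:**
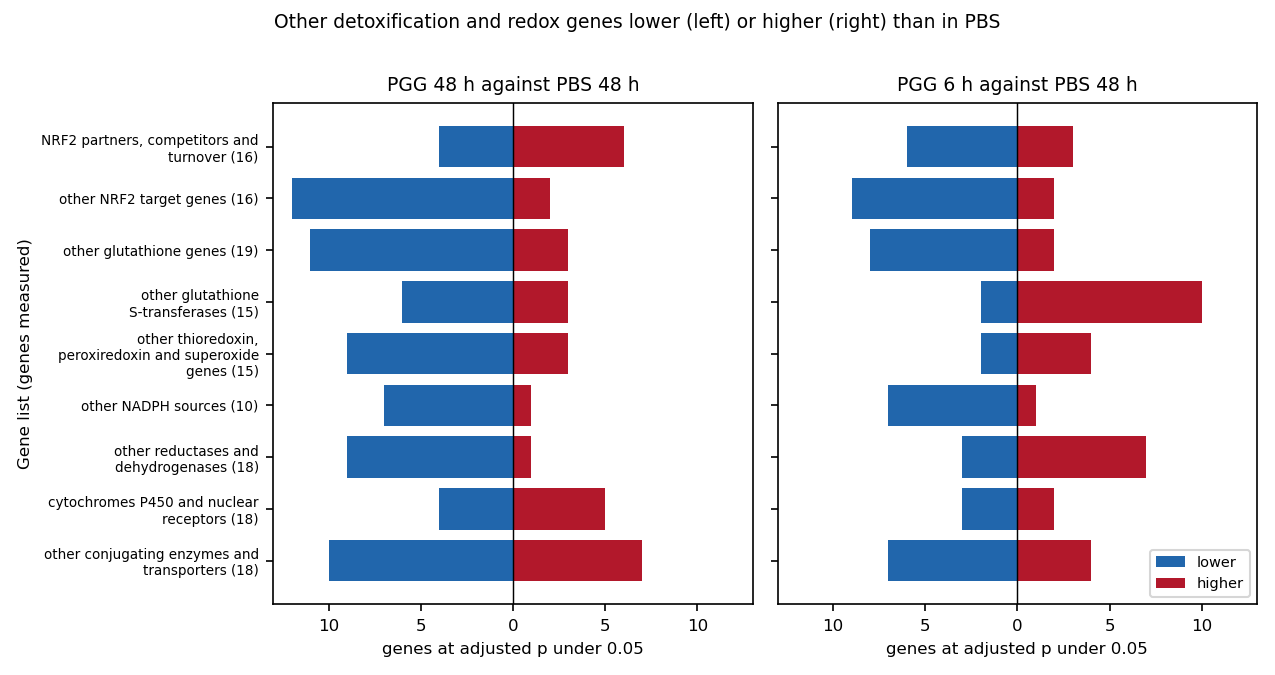
Number of genes (horizontal axes) of 9 lists of other detoxification and redox genes that were lower (blue, to the left) or higher (red, to the right) than in PBS 48 h at an adjusted p under 0.05, for PGG 48 h (left panel) and PGG 6 h (right panel), with the genes measured in brackets. Other NRF2 target genes show 12 falls and 2 rises at 48 hours, and other glutathione S-transferases show 2 falls and 10 rises at 6 hours.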

How the data were processed

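The 9 Affymetrix arrays of Huh7 RNA fell into 3 groups. The authors deposited log2 values per probe set, and the submitters' processing notes name RMA and Affymetrix Expression Console, with no version given in the sources used here. RMA corrects background on each array, brings the arrays to a common scale and compresses differences of dim probe sets. Scanner files were not used here. Arrays hold no counts, so the 3 arrays per group limit the precision.

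Samples were grouped by their titles. From the deposited values, limma 3.58.1 in R 4.3.3 fitted 1 mean per group over the 9 arrays (lmFit, eBayes), with Benjamini-Hochberg adjustment over 54613 probe sets, without 62 control probe sets, or over 19775 genes, taking for a gene the probe set of highest mean. Symbols came from the platform annotation, by which 41091 probe sets had 1 symbol, 1801 several and 11721 none. Rose and fell mean an adjusted p under 0.05, and an adjusted p is over genes unless said otherwise. The p-values measure the spread between arrays called biological replicates.

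Members, roles and lists were chosen with earlier results of these data known. Values per array were given for NFE2L2, KEAP1, NQO1, GCLC, GCLM, TXNRD1, SRXN1 and members past a log2 difference of 1 against PBS, and, chosen after their values were seen, for PRDX1, GPX1, GPX2, AKR1C1 and the PGG 48 h arrays of GPX4, and at most the 3 largest rises and 3 largest falls of a list were named. Motifs were searched in RefSeq promoter windows of GRCh38.p14. Alternatives were the methods' t-test, 2 scalings, filters, other probe set rules, a variance trend, array weights, fits of only 2 groups, the replicate number as a block and single arrays left out.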

Additional observations from a re-analysis of the deposited data

Results flagged for a closer look

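The signal differed between PGG 48 h and PGG 6 h, groups that differ in time in culture too, for 29 of the 33 genes (limma, adjusted p under 0.05, with the solvent arrays used only to estimate the spread). In the same comparison 22.6% of all genes were lower and 23.0% higher. Of the 33 genes, those higher in PGG 48 h than in PGG 6 h were NFE2L2 (log2 difference 0.54), GCLC (0.33), ABCC1 (0.30) and KEAP1 (0.19). Lower by more than 1 were GSTA1 (-3.19), EPHX1 (-1.98), ABCC3 (-1.53), GSTA4 (-1.43), TALDO1 (-1.25), NQO1 (-1.19), AKR1B10 (-1.11), GPX2 (-1.08), ABCC2 (-1.03), AKR1C3 (-1.02) and GPX1 (-1.01). Differences between -0.97 and -0.71 were those of GCLM (-0.97), CBR1 (-0.95), TXN (-0.90), GSS (-0.83), UGDH (-0.75) and PGD (-0.71). The smaller falls were GSR (-0.64), SRXN1 (-0.64), PRDX1 (-0.58), AKR1C1 (-0.52), MGST1 (-0.51), GSTM3 (-0.45), TXNRD1 (-0.40) and CES1 (-0.29).

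Outside the genes compared, the 3′ minus 5′ signal of the control gene ACTB averaged 2.95 ± 0.97 in PGG 48 h, 1.17 ± 0.05 in PGG 6 h and 1.35 ± 0.34 in PBS 48 h (log2, SD, n = 3), and that of GAPDH was 0.27 to 1.83, 0.19 to 0.24 and 0.13 to 0.35, in the same order of groups. Their part in the differences at 48 hours was not tested.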

How the results depend on the processing

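The 23 falls at 48 hours kept their count within 1.5 times under every alternative run, and with single arrays left out it was 23 to 24. The 2 rises at 48 hours became 0 with the methods' t-test, with only the 2 groups compared and with the replicate block, 1 with quantile normalization and with array weights, and 0 to 1 with single arrays left out. At 6 hours the 9 rises became 5 with the mean of all probe sets of a gene, and the 5 falls became 9 with a variance trend and 3 to 5 with single arrays left out. The cause was not tested.

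The median log2 difference at 48 hours, -0.56, was -0.53 with each array centred on its median, -0.52 with quantile normalization, -0.60 without dim probe sets, -0.64 with the mean of all probe sets, -0.47 without probe sets named x_at or s_at, -0.59 with array weights and -0.59 to -0.53 with single arrays left out. For PGG 48 h against PGG 6 h it was -0.65 with quantile normalization and -0.64 with the mean of all probe sets. For 6 hours it was -0.03 with that mean and -0.063 to -0.028 with single arrays left out.

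Direction turned for 3 genes when other probe sets stood for them. With the mean of all probe sets and without x_at and s_at, TKT was at 0.30 and 0.95 at 6 hours and at -0.34 and -1.02 for PGG 48 h against PGG 6 h, TXN at -0.03 and -0.31 at 6 hours, and GSTM3 at 0.005 and 0.46 for PGG 48 h against PGG 6 h. GSTM3 was at 0.49 at 48 hours without x_at and s_at. Sign changes of values called under neither setting were not counted as turned.

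Deviations of same-numbered arrays from their group means correlated weakly (r from -0.09 to 0.16, 3 of 9 pairs over 0.1). However, 6 of 9 arrays were closest to their own number, so these values do not settle whether the numbers pair the arrays. The main fit did not take them as pairs. With the replicate block the counts were 0 rises and 23 falls at 48 hours, 9 and 4 at 6 hours, and 3 and 25 between the times.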
